A study of Homo sapiens with 6 samples.

Results

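The genes described here are 41 regulators of pre-mRNA splicing: 12 SR proteins, 13 heterogeneous nuclear ribonucleoproteins (hnRNPs), 9 proteins of the U2 snRNP and U2AF, 6 kinases that phosphorylate SR proteins, and the zinc finger protein ZRANB2. They were chosen by gene symbol from a table of 60675 genes, each symbol matched 1 row, and all 41 were among the 16503 genes with enough counts to be tested. RNA was sequenced from HCT116, an established human colon cancer cell line, in 3 groups of 2 libraries each. The first group was untreated and wildtype. The second was wildtype and was given 3 uM SP2509, a compound that inhibits LSD1 (gene KDM1A), which removes methyl groups from histones, for 48 h. The third (siPIR) was a transient knockdown, by small interfering RNA for 48 h, of PIR, which encodes pirin, a nuclear iron-binding protein. For the siPIR samples the treatment field also reads SP2509 while the titles mention the knockdown only, and the labels do not settle whether the compound was added. No group with a non-targeting small interfering RNA is labelled, a DMSO arm is named in the treatment protocol without being tied to a sample, and nothing says that the 2 libraries of a group came from separate cultures. The p-values therefore measure the spread between these libraries, which may be technical.

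SR proteins carry RNA recognition motifs and a tail rich in arginine-serine dipeptides; they bind exonic enhancers and recruit the spliceosome, whereas hnRNPs coat nascent transcripts and often repress nearby splice sites. U2AF reads the 3′ splice site and brings the U2 snRNP, whose SF3A and SF3B subunits hold it at the branch point. The CLK and SRPK kinases phosphorylate the arginine-serine tails and so set where SR proteins reside and how active they are. Many genes of this machinery control their own level through alternative exons or retained introns that keep the transcript in the nucleus or send it to nonsense-mediated decay. The deposited counts here are per gene and do not separate such transcripts from productive ones.

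Library totals ranged from 22622121 to 28816285 counts. PIR had 519 and 462 counts in the untreated libraries and 37 and 39 in the siPIR libraries, a fall of 2.87 on the log2 scale (SE 0.175, edgeR adjusted p = 3.39e-09). In the SP2509 libraries it had 377 and 305 (adjusted p = 0.406 in edgeR). KDM1A fell by 0.43 with SP2509 (edgeR adjusted p = 0.00117). The siPIR libraries stood apart in base composition: the mean GC content of the counted transcripts, weighted by count, was 42.3% and 42.8%, against 48.3% to 48.7% in the other 4. The SP2509 libraries had 6.33% and 6.93% of their counts on the mitochondrial ribosomal RNAs, against 1.14% to 1.63% elsewhere. The 6 colonic epithelial markers summed to 3660 CPM (counts scaled to a common library total) in both untreated libraries, 3140 and 3030 with SP2509, where VIL1 was at 0 in 1 library, and 1010 and 1070 in siPIR. The 5 fibroblast markers summed to 28.0 and 32.0 CPM in untreated cells, 21.3 and 19.6 with SP2509 and 1.04 and 1.41 in siPIR. The 4 endothelial markers summed to 0.354 to 2.29 CPM and the 5 leukocyte markers to 0.309 to 0.873 over the 6 libraries. COL1A2, CDH5, PTPRC and CD3E, of these 3 lists, were at 0 in all 6, and the part of the marker differences in the results was not tested. In bulk RNA, a change in the number of cells of a kind and a change in RNA per cell cannot be told apart.

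The coding sequence of an arginine-serine-rich stretch is printed here for 4 members. Arginine can be written with CGN codons, which hold G or C at both leading bases, or with AGA and AGG. The letters are shown because the siPIR libraries differed from the others in GC content. Each stretch is the 90 bases of the coding sequence (GENCODE 29, GRCh38) with the most neighbouring arginine and serine codons, 5′ to 3′, and capitals mark the arginine codons. The 4 were chosen after their values were seen, as the 2 largest falls and the 2 largest rises in siPIR against untreated among members whose stretch holds at least 8 such pairs.
U2AF2: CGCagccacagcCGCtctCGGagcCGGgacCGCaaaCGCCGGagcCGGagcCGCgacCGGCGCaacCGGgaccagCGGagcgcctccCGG
CLK3: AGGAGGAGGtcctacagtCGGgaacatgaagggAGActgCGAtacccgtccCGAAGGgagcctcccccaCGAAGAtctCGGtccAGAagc
ZRANB2: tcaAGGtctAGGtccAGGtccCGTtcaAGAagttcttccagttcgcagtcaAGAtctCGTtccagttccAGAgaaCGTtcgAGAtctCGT
SRSF11: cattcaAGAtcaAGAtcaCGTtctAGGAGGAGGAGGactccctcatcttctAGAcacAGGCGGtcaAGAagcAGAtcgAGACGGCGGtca
All 14 arginine codons of the U2AF2 stretch (coding bases 79 to 168) were CGN, and 78.9% of its bases were G or C. The CLK3 stretch (bases 508 to 597) held 5 CGN codons among 12 and was 61.1% G or C. The ZRANB2 stretch (bases 667 to 756) held 4 among 11 and was 50% G or C. The SRSF11 stretch (bases 742 to 831) held 4 among 15 and was 52.2% G or C. These stretches encode the same kind of repeat with different letters. Over whole coding sequences the median number of neighbouring arginine-serine codon pairs was 46 in the SR proteins, 12 in the kinases, 5 in the U2 and U2AF proteins and 4 in the hnRNPs.

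In untreated cells the 3 most abundant members per transcript length were hnRNPs, though some other hnRNPs lay below several SR genes. Levels between genes are given as CPM, scaled by TMM (a trimmed mean of M values) and divided by the length of the longest transcript in kilobases (CPM per kb). HNRNPA1, a repressor of exons that also shuttles messenger RNA, stood at 303 ± 7.84 CPM per kb (SD, n = 2), followed by HNRNPK, which binds C-rich RNA, at 243 ± 7.27 and HNRNPA2B1 at 180 ± 12.3. The groups of 2 values of these 3 genes did not overlap. The CLK kinases were among the scarcest: CLK4 stood at 2.95 ± 0.425 CPM per kb and CLK3 at 4.81. SRSF4 at 9.72, CLK1 at 11.3 ± 2.11 and CLK2 at 11.6 came next in order. The kinase SRPK1 (23.4) lay above U2AF1 (17.0). CLK1 and CLK2 differed by less than the spread between their libraries. In the SP2509 libraries HNRNPA1 (317 CPM per kb) and HNRNPK (272) kept the top of the order and ZRANB2 (6.91) and CLK4 (7.03) were lowest. In the siPIR libraries HNRNPK (459) and HNRNPA2B1 (355) were highest and SF3A2 (0.611), CLK3 (1.29) and U2AF2 (2.51) lowest. The longest transcript can be longer than the one in use, as for CLK3 and HNRNPU, whose longest transcripts are 10498 and 13084 bases, and levels per kb are then too low. The plot of levels shows selected members in every library, as CPM not divided by length.

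**Figure D1:**
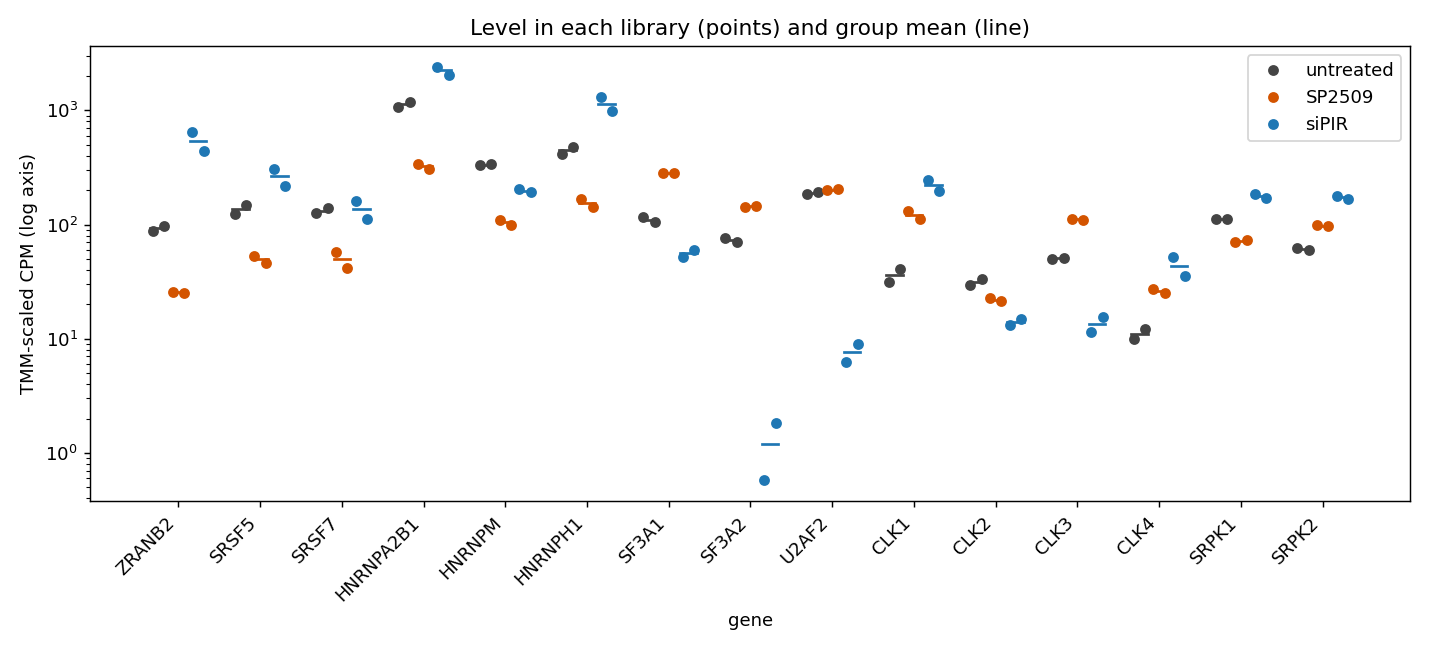
Level of selected members in the 6 libraries, as TMM-scaled CPM on a log axis, coloured by group, with a line at the group mean. SF3A2 averages 73.1 CPM in untreated cells and 1.20 in the siPIR libraries, and U2AF2 188 and 7.59.

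A share of all counts in a library amounts to scaling by total counts. By this measure the SR genes took 0.260% and 0.282% in untreated cells, 0.131% and 0.114% with SP2509, and 0.387% and 0.319% in siPIR. The hnRNP genes took 0.840% and 0.883%, then 0.474% and 0.448% with SP2509, and 0.928% and 0.868% in siPIR. The kinases took 0.0369% and 0.0390% in untreated cells, 0.0449% and 0.0417% with SP2509, and 0.0544% and 0.0511% in siPIR. The SR and hnRNP shares with SP2509 lay below both untreated values, and the kinase shares lay above them. The U2 and U2AF genes took 0.186% and 0.187%, 0.193% and 0.181%, and 0.133% and 0.142% in the same order of groups. As shares, the SP2509 and untreated values thus overlapped and the siPIR values lay lower. This order depended on the scaling. Summed as TMM-scaled CPM, the U2 and U2AF genes were at 1485 and 1479 in untreated cells. They were at 1981 and 1902 with SP2509 and at 1673 and 1677 in siPIR, both above untreated cells.

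**Figure D2:**
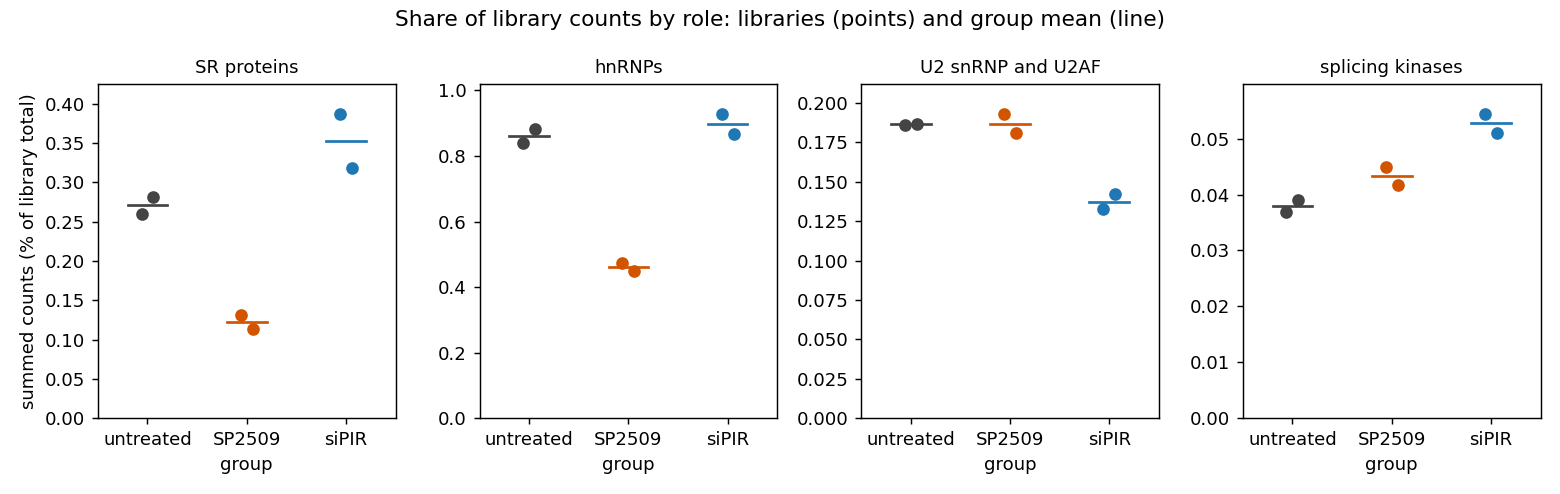
Share of all counts in each library that fell on the SR, hnRNP, U2 and U2AF, and kinase genes, in percent, with 1 point per library and a line at the group mean. The SR share is 0.260% and 0.282% in untreated cells and 0.131% and 0.114% with SP2509, and the kinase share is higher in both treated groups.

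The first comparison asked what the compound did to these genes. With SP2509, 10 of the 12 SR genes and 8 of the 13 hnRNP genes were lower, and 4 of the 6 kinase genes and 5 of the 9 U2 and U2AF genes were higher. Of the 41 members, 31 passed the edgeR test, 10 higher and 21 lower, with a median log2 fold change of -0.30. Over all genes tested 68.6% passed, 33.5% higher and 35.1% lower, with a median of -0.04, so passing the test was common in this comparison. A fall of more than 2-fold was met by 13 members, against 17.9% of all genes, and a rise of more than 2-fold by 4, against 12.9%. The untreated and SP2509 values did not overlap in 40 members, HNRNPL being the exception, against 86.9% of all genes.

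**Figure D3:**
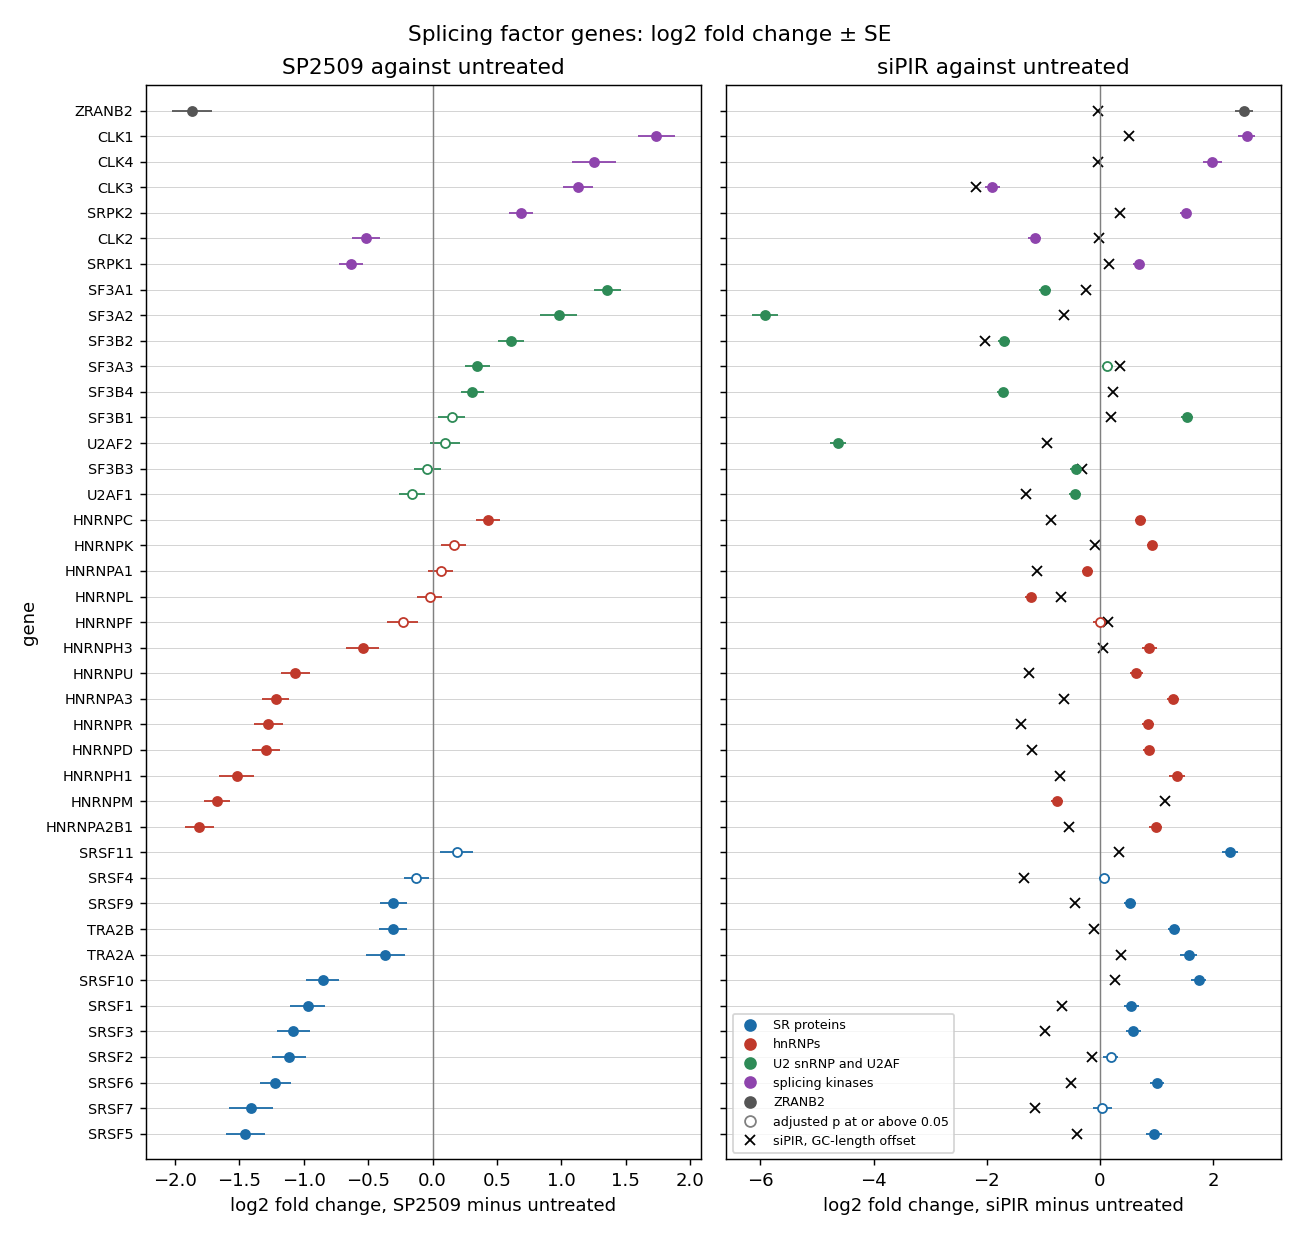
log2 fold change of each member against untreated cells with its standard error, for SP2509 and siPIR, ordered by role; open circles did not pass the threshold, and crosses give the siPIR value with the GC-length offset. With SP2509 the SR proteins other than SRSF11 and most hnRNPs lie below 0, down to -1.81 for HNRNPA2B1, and CLK1 lies highest at 1.74.

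Of the 12 SR genes, 10 fell with SP2509 and none rose (log2 fold changes from -1.45 to -0.30, role median -0.91, edgeR adjusted p between 1.98e-06 and 0.045). SRSF5 was at 124 and 148 CPM in the untreated libraries and 52.8 and 46.4 with SP2509. It fell by 1.45 on the log2 scale (SE 0.153, edgeR adjusted p = 3.20e-06). SRSF7, which carries a zinc knuckle and also acts in RNA export, was at 126 and 138 CPM and then at 57.6 and 41.8. It fell by 1.41 (SE 0.171, edgeR adjusted p = 1.07e-05). The lower SP2509 value of SRSF7 lay well under the other, so its spread was among the wider ones, but both were below both untreated values. SRSF1, SRSF2, SRSF3, SRSF6 and SRSF10 also fell, each to between 42.9% and 55.4% of its untreated level, while SRSF9, TRA2A and TRA2B fell by less (log2 fold changes -0.30, -0.37 and -0.31). These 3 smaller falls did not pass without the first or without the second untreated library, and without SP2509 replicate 2 they were -0.26, -0.18 and -0.24 (edgeR adjusted p = 0.162, 0.415 and 0.203). SRSF4 (77.9 and 80.1 CPM, then 73.8 and 71.1) and SRSF11 (156 and 167, then 192 and 175) did not pass.

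Of the 13 hnRNP genes, 8 fell (log2 fold changes from -1.81 to -0.54), HNRNPC rose, and HNRNPA1, HNRNPF, HNRNPK and HNRNPL did not pass; the role median was -1.07. HNRNPA2B1, which binds messenger and microRNA precursors, was at 1077 and 1186 CPM in untreated cells and 337 and 309 with SP2509. It fell by 1.81 (SE 0.115, edgeR adjusted p = 4.60e-08). HNRNPM, a regulator of alternative exons in epithelial and mesenchymal cells, was at 332 and 338 CPM and then at 110 and 99.7. It fell by 1.68 (SE 0.100, edgeR adjusted p = 2.84e-08). HNRNPH1, which binds G-rich RNA, was at 416 and 477 CPM and then at 168 and 143. It fell by 1.52 (SE 0.139, edgeR adjusted p = 9.41e-07). In all 3 genes both SP2509 values lay far below both untreated ones. HNRNPC, which binds uridine tracts, went the other way, from 606 and 598 to 800 and 820 CPM. The most abundant member, HNRNPA1, was at 1227 and 1273 CPM in untreated cells and 1337 and 1273 with SP2509.

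ZRANB2, which binds 5′ splice site-like sequences and carries an arginine-serine tail, had the largest fall of the 41. It was at 88.2 and 97.6 CPM in untreated cells and at 25.4 in both SP2509 libraries. It fell by 1.87 on the log2 scale (SE 0.155, edgeR adjusted p = 4.14e-07). The groups were far apart relative to the spread within each.

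Among the kinases, 4 genes rose and 2 fell. CLK1, whose protein phosphorylates SR proteins in the nucleus, was at 31.6 and 41.2 CPM in untreated cells and 131 and 112 with SP2509. It rose by 1.74 (SE 0.147, edgeR adjusted p = 4.68e-07), the largest rise among the members. CLK4, its closest relative, was at 9.88 and 12.1 CPM and then at 27.3 and 25.1, a rise of 1.25 (SE 0.169, edgeR adjusted p = 2.64e-05). CLK3 went from 50.2 and 51.0 CPM to 111 and 110, a rise of 1.13 (SE 0.117, edgeR adjusted p = 2.62e-06). CLK2 moved the opposite way, from 29.7 and 33.2 CPM to 22.7 and 21.3, a fall of 0.51 (SE 0.109, edgeR adjusted p = 0.00104). The cytoplasmic SR kinases also parted. SRPK2 went from 61.8 and 59.4 CPM to 98.4 and 97.0, a rise of 0.69 (SE 0.094, edgeR adjusted p = 3.10e-05). SRPK1 went from 111 and 111 CPM to 70.8 and 72.7, a fall of 0.63 (SE 0.096, edgeR adjusted p = 7.24e-05). For each of the 6 kinases the untreated and SP2509 values did not overlap, as was the case for 86.9% of all genes.

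Of the 9 U2 and U2AF genes, 5 rose and none fell (log2 fold changes from 0.31 to 1.36, role median 0.31). SF3A1, a subunit of SF3A, was at 116 and 105 CPM in untreated cells and 283 and 281 with SP2509. It rose by 1.36 (SE 0.104, edgeR adjusted p = 2.25e-07). Its partner SF3A2 went from 76.1 and 70.1 CPM to 143 and 146, a rise of 0.98 (SE 0.144, edgeR adjusted p = 5.56e-05). The third subunit, SF3A3 (log2 fold change 0.35), and SF3B2 (0.61) and SF3B4 (0.31) of SF3B rose by less. Without untreated replicate 2 SF3A3 was at 0.30 and SF3B4 at 0.28, and neither passed (edgeR adjusted p = 0.0993 and 0.107). SF3B1, the subunit that grips the branch point adenosine and the target of splicing inhibitors, did not pass (410 and 419 CPM, then 490 and 428). Neither did SF3B3, nor U2AF1 or U2AF2, the small and large U2AF subunits.

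Scaling set where 0 lay. Over the 16503 genes the median was -0.04 on the log2 scale under TMM, -0.27 when upper quartiles set the scale and -0.43 when total counts did. Relative to that median, a distance that scaling cannot alter, the SR genes stood at -0.87, the hnRNPs at -1.03, the U2 and U2AF genes at 0.35 and the kinases at 0.95. With total counts 11 SR genes and 11 hnRNPs were called lower, none of either was called higher, and HNRNPC was not called, while 3363 of the 16503 genes were called higher and 8527 lower. With that scaling the U2 and U2AF median turned to -0.08, with 2 called higher (SF3A1 and SF3A2) and 3 called lower (SF3B3, U2AF1 and U2AF2). With the GC-length offset all 31 calls of this comparison kept their direction, and SRSF11, HNRNPK and U2AF2 joined the higher ones, while 72.5% of all genes were called.

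The values with SP2509 varied with the GC content of the members. Among the 14 members at or below 40% GC the median log2 fold change was -1.15, against 0.04 over the 2594 tested genes of that GC content. Among the 14 members between 40% and 45% it was -0.31, against 0.05 over 3449 genes. The 7 members between 45% and 50% had -0.02 (0.05 over 2900 genes) and the 3 between 50% and 55% had -0.51 (-0.07 over 2577 genes). Of 1 member each, that between 55% and 60% had 0.31 (-0.16 over all genes there). The member between 60% and 65% had 0.09 (-0.19) and that above 65% had 0.98 (-0.33). CLK1 and CLK4, which rose, have 35.7% and 36.2% GC, and HNRNPM, which fell, has 54.95%. The members are more AU-rich than most genes, with a median GC content of 41.3% against 48.9% over tested protein-coding genes. GC content also went with role: its median was 40.6% in the SR genes, 39.9% in the hnRNPs, 43.3% in the kinases and 48.5% in the U2 and U2AF genes. Across the 41 members the Spearman correlation of fold change with GC content was 0.345, and 0.383 with the GC-length offset. Over 16345 tested genes it was -0.089 without the offset, as a description of genes that share the same libraries.

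Under TMM 5 genes of SF3A and SF3B were called higher with SP2509. With total counts only SF3A1 and SF3A2 of them were, and SF3A3 and SF3B4 turned sign. Prompted by the TMM calls, the 300 bases around the RefSeq start sites of the members (250 before and 50 after, GRCh38.p14) were searched. The table held 37 of the 41 members, all but HNRNPA1, SRSF2, TRA2A and SF3B3. The letters CCGGAAG, the core of sites bound by ETS factors, were present on either strand in 6 of 8 U2 and U2AF promoters, namely SF3A1, SF3A2, SF3A3, SF3B2, SF3B4 and U2AF2. Over all 37 members 10 held them (27.0%), against 18.2% of 10591 promoters of expressed genes and 10.7% of 27305 promoters. Expressed genes here are those kept by a filter on counts that is separate from the filter of the tests. The 250 bases before the start are shown for SF3A3 (chr1:37990023-37990272, minus strand) and SF3B2 (chr11:66052114-66052363, plus strand), 5′ to 3′ on the strand of the gene, with the CCGGAAG letters or their reverse complement in capitals.
SF3A3: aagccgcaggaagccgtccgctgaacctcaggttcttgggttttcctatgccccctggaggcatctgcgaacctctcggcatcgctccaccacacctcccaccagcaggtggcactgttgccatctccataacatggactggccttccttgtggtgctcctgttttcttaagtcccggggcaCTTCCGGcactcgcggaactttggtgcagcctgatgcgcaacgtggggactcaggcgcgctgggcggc
SF3B2: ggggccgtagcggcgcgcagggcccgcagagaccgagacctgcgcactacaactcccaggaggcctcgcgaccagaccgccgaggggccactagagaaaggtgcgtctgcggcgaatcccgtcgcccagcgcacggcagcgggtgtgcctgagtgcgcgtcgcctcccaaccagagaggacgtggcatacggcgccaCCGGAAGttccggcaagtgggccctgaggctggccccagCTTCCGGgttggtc
U2AF2 held the letters and did not pass with SP2509, and SRSF4, SRSF5, HNRNPD and HNRNPF held them and fell or did not pass. A match of letters is a description and not a bound site. Member promoters had a median GC content of 64%, against 58.3% over all 27305 promoters, and the part of GC content in these matches was not tested. The CCAAT letters were in 10 of 37 member promoters (27.0%, against 36.6% of promoters of expressed genes), and in none of the 8 U2 and U2AF promoters. The E-box letters CACGTG were in 7 of 37 (18.9%, against 10.1%), CLK2 and CLK4 among them. The AP-1 letters TGANTCA were found in 1 member promoter, that of SF3A2, and the cAMP response element TGACGTCA in none.

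The second comparison was of the knockdown with untreated cells. In the siPIR libraries SR and hnRNP genes were mostly higher, U2 and U2AF genes mostly lower, and the values followed the GC content of the transcript, as did those of all other genes. Of the 41 members, 36 passed the edgeR test, 24 higher and 12 lower, with a median log2 fold change of 0.64. Over all genes tested 86.1% passed, 39.3% higher and 46.9% lower, with a median of -0.28. The siPIR and untreated values did not overlap in 37 members, SRSF2, SRSF4, SRSF7 and HNRNPF being the exceptions, against 93.1% of all genes. Across the members the Spearman correlation of fold change with GC content was -0.816 (n = 41 genes), and over 16345 tested genes it was -0.883. With third-base GC content of the coding sequence it was -0.767, and with the share of arginine codons written as CGN it was -0.671. These correlations are across genes of the same libraries and their measures share base composition. The 14 members at or below 40% GC had a median of 1.15, against 1.93 over the 2594 tested genes of that GC content. Between 40% and 45% the members had 0.78 against 1.08, and between 45% and 50% -0.43 against 0.06. Between 50% and 55% they had -0.97 against -1.18, and between 55% and 60% -1.72 (1 member) against -2.61.

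A second fit carried an offset for GC content and length of the longest transcript, fitted over all genes. With it 63.3% of all genes passed, 33.9% higher and 29.3% lower, with a median of 0.03, and 32 members passed, 9 higher and 23 lower, with a median of -0.41. The sign turned for 22 members. With and without it, 6 were called higher (SRSF10, SRSF11, TRA2A, SF3B1, CLK1 and SRPK2), 9 were called lower (HNRNPA1, HNRNPL, SF3A1, SF3A2, SF3B2, SF3B3, U2AF1, U2AF2 and CLK3), 12 went from called higher to called lower, and HNRNPM and SF3B4 from called lower to called higher. Knockdown and GC content cannot be told apart for a single gene in these libraries, so the siPIR fold changes given below stand beside their values with the offset.

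**Figure D4:**
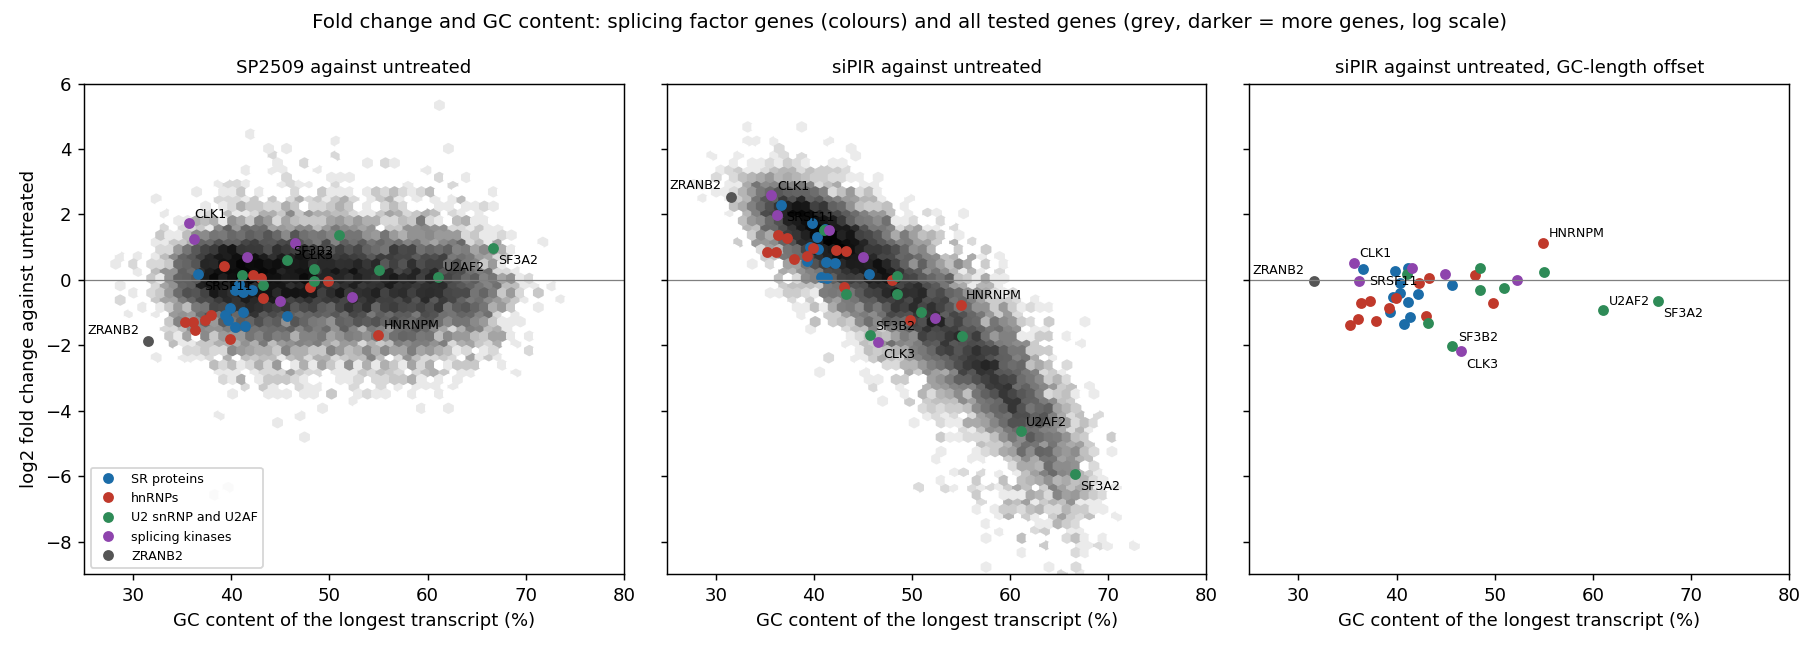
log2 fold change against GC content of the longest transcript, with members as coloured points and all tested genes as grey hexagons (darker for more genes, log scale); the right panel shows the members with the GC-length offset. In siPIR against untreated the fold change falls with GC content in the members (Spearman -0.816) and over all genes (-0.883). Up to 50% GC the members' medians lie below those of all genes, and with the offset the members' correlation is 0.113.

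In siPIR, 9 SR genes rose and none fell (log2 fold changes from 0.52 to 2.30, role median 0.77). With the offset 3 were called higher and 7 lower, with a role median of -0.43. SRSF11, an SR-related protein that binds U2AF, was at 156 and 167 CPM in untreated cells and 912 and 678 in siPIR. It rose by 2.30 (SE 0.136, edgeR adjusted p = 2.50e-09) and by 0.33 with the offset. SRSF10, which turns repressor when dephosphorylated, went from 144 and 152 CPM to 566 and 428, a rise of 1.75 (SE 0.131, edgeR adjusted p = 2.71e-08) and of 0.27 with the offset. TRA2A, a relative of the fly sex-determination factor transformer 2, went from 79.5 and 80.6 CPM to 276 and 199, a rise of 1.57 (SE 0.151, edgeR adjusted p = 3.71e-07) and of 0.37 with the offset. In each of these genes the first siPIR library was the higher one, and both lay above both untreated values. SRSF7 was at 126 and 138 CPM in untreated cells and 160 and 112 in siPIR, groups that overlapped, with a log2 fold change of 0.04 that did not pass and of -1.15, which passed, with the offset.

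Of the hnRNP genes, 9 rose, HNRNPA1, HNRNPL and HNRNPM fell, and HNRNPF did not pass; the role median was 0.85. With the offset only HNRNPM was called higher and 9 were called lower, with a role median of -0.69. HNRNPL, which binds CA repeats, was at 203 and 183 CPM in untreated cells and 83.1 and 82.1 in siPIR. It fell by 1.22 (SE 0.099, edgeR adjusted p = 5.86e-08) and by 0.69 with the offset. HNRNPM, with the highest GC content of the hnRNPs (54.95%), went from 332 and 338 CPM to 205 and 191. Its log2 fold change was -0.76 without the offset and 1.14 with it, both past the threshold, so its direction depends on the offset. The fall of HNRNPA1 (1076 and 1066 CPM in siPIR) was small, at -0.22, and did not pass when any 1 of the untreated or SP2509 libraries was left out (edgeR adjusted p between 0.0711 and 0.176). With the offset it was -1.11 and passed (edgeR adjusted p = 3.71e-11). HNRNPA2B1 was at 2413 and 2054 CPM in siPIR, above both untreated values, with a log2 fold change of 0.98 and, with the offset, -0.56.

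ZRANB2, the member with the lowest GC content (31.6%), was at 88.2 and 97.6 CPM in untreated cells and 641 and 442 in siPIR. It rose by 2.54 (SE 0.152, edgeR adjusted p = 2.81e-09), and with the offset the value was -0.03 and did not pass.

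Among the kinases CLK1 and CLK4 were highest relative to untreated cells. CLK1 was at 243 and 196 CPM in siPIR, a rise of 2.59 (SE 0.15, edgeR adjusted p = 2.00e-09) and of 0.52 with the offset. CLK4 was at 51.6 and 35.2 CPM, a rise of 1.98 (SE 0.168, edgeR adjusted p = 9.96e-08), and at -0.04 with the offset, which did not pass. Both genes are AU-rich (35.7% and 36.2% GC). SRPK2 was at 177 and 168 CPM, a rise of 1.51 (SE 0.095, edgeR adjusted p = 4.75e-09) and of 0.35 with the offset. SRPK1 was at 187 and 171 CPM, a rise of 0.69 (SE 0.095, edgeR adjusted p = 1.45e-05), with 0.17 under the offset, which did not pass. CLK3 was at 11.4 and 15.6 CPM, a fall of 1.90 (SE 0.131, edgeR adjusted p = 1.20e-08) and of 2.19 with the offset. CLK2 was at 13.3 and 15.0 CPM, a fall of 1.15 (SE 0.117, edgeR adjusted p = 6.19e-07), with -0.01 under the offset. The offset of CLK3 used its longest transcript, which is 46.5% GC, whereas its coding sequence is 60.8% GC.

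Of the U2 and U2AF genes, 7 fell, SF3B1 rose and SF3A3 did not pass; the role median was -0.97, and -0.32 with the offset. SF3A2, at 66.6% GC the most GC-rich member, was at 76.1 and 70.1 CPM in untreated cells and 0.575 and 1.82 in siPIR, which were 11 and 35 counts. It fell by 5.92 (SE 0.232, edgeR adjusted p = 7.69e-11) and by 0.63 with the offset. U2AF2 was at 185 and 191 CPM and then at 6.22 and 8.96, a fall of 4.63 (SE 0.148, edgeR adjusted p = 2.24e-11) and of 0.93 with the offset. The 607 tested genes above 65% GC had a median of -5.83 and the 1789 between 60% and 65% had -4.11, close to these 2 values. SF3B2 went from 257 and 250 CPM to 73.7 and 83.0, a fall of 1.69 (SE 0.102, edgeR adjusted p = 3.07e-09) and of 2.03 with the offset. Its longest transcript is 45.7% GC and its coding sequence 56.1%. SF3B4 went from 67.6 and 65.3 CPM to 20.1 and 20.3, a fall of 1.72 (SE 0.100, edgeR adjusted p = 2.07e-09), and its value with the offset was 0.24. SF3B1, the only subunit of the set that rose, went from 410 and 419 CPM to 1227 and 1175, with a log2 fold change of 1.54 and, with the offset, 0.19. It is the most AU-rich of the U2 and U2AF genes (41.04% GC).

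In siPIR the median over the 16503 genes was -0.28 on the log2 scale under TMM, -0.45 when upper quartiles set the scale and -0.89 when total counts did. With total counts the members called numbered 16 higher and 17 lower, and SR genes were called 6 higher and 3 lower, with a role median of 0.15, while 4796 of all genes were called higher and 9359 lower.

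The third comparison set the knockdown against the compound. Both treated groups were compared above with the same untreated libraries, so their values are given side by side and the difference is taken from its own contrast. Of the 41 members 38 passed the edgeR test, 27 higher and 11 lower in siPIR, with a median of 0.92, against 84.3% of all genes (38.8% higher, 45.5% lower, median -0.23). With the offset 33 passed, 16 higher and 17 lower, with a median of 0.05, against 68.6% of all genes. Groups did not overlap in 40 members, HNRNPF being the exception, against 91.8% of all genes.

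ZRANB2 differed most in the upward direction, with 641 and 442 CPM in siPIR and 25.4 in both SP2509 libraries, a log2 difference of 4.41 (SE 0.168, edgeR adjusted p = 5.32e-11) and of 1.59 with the offset. HNRNPH1 followed with 2.88 (SE 0.146, edgeR adjusted p = 5.94e-10), and 0.78 with the offset, then HNRNPA2B1 with 2.79 (SE 0.119, edgeR adjusted p = 1.24e-10), and 1.29 with the offset. SRSF10 differed by 2.60 (SE 0.136, edgeR adjusted p = 7.91e-10), HNRNPA3 by 2.51 (SE 0.112, edgeR adjusted p = 1.89e-10) and SRSF5 by 2.41 (SE 0.157, edgeR adjusted p = 6.95e-09). With the offset these 3 differed by 1.12, 0.57 and 1.02. All 6 were higher in siPIR by both fits.

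In the downward direction SF3A2 differed by -6.90 (SE 0.230, edgeR adjusted p = 2.09e-11), and -1.98 with the offset, and U2AF2 by -4.72 (SE 0.149, edgeR adjusted p = 1.48e-11), and -1.30 with the offset. CLK3 was at 111 and 110 CPM with SP2509 and 11.4 and 15.6 in siPIR, a difference of -3.03 (SE 0.133, edgeR adjusted p = 1.61e-10), and -3.33 with the offset. SF3A1 was at 283 and 281 CPM with SP2509 and 52.1 and 60.04 in siPIR, a difference of -2.33 (SE 0.11, edgeR adjusted p = 3.05e-10), and -1.67 with the offset. SF3B2 differed by -2.30 (SE 0.104, edgeR adjusted p = 2.15e-10) and -2.68 with the offset, and SF3B4 by -2.03 (SE 0.100, edgeR adjusted p = 4.70e-10) and -0.24 with the offset. These 6 were lower in siPIR by both fits. SF3A1, SF3A2, SF3B2, SF3B4 and CLK3 had passed as higher with SP2509 and as lower in siPIR, each against the same untreated libraries, but with the offset SF3B4 was called higher in siPIR (0.24).

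The remaining kinases depended on the offset. CLK1 differed by 0.86 (SE 0.141, edgeR adjusted p = 7.82e-05) without it and by -1.32 with it, and CLK4 by 0.73 (SE 0.160, edgeR adjusted p = 0.000842) and -1.36. SRPK2 differed by 0.82 (SE 0.094, edgeR adjusted p = 2.25e-06) and -0.33, and CLK2 by -0.64 (SE 0.120, edgeR adjusted p = 0.000237) and 0.36. SRPK1 kept its direction, with 1.32 (SE 0.097, edgeR adjusted p = 2.36e-08) and 0.79. Whether CLK1, CLK2, CLK4 and SRPK2 were higher or lower in siPIR than with SP2509 thus turned with the treatment of GC content.

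The annotation shows how many transcripts these gene totals can hold. In GENCODE 29, 32 of the 41 members (78.0%) have at least 1 transcript annotated to nonsense-mediated decay, among them all 12 SR genes, against 42.4% of 13240 tested protein-coding genes. As many members, 32, have an annotated retained-intron transcript, against 57.3%, and the median number of transcripts per gene was 12 against 7. A gene total can therefore move with productive or unproductive transcripts, and their parts were not tested.

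Some members share reads with other genes. U2AF1 has a near-identical copy, U2AF1L5, which held 2523.82 and 2540 counts in untreated cells, 1666.43 and 1569.4 with SP2509 and 921.93 and 863.14 in siPIR, 89.3% of the U2AF1 counts over the 6 libraries, so the level of U2AF1 is uncertain. HNRNPA1 has 75 annotated pseudogenes with counts equal to 5.76% of its own, HNRNPA3 has 1.02% and HNRNPC 0.989%. Exons of HNRNPU, SF3A2, SRSF2 and SRSF9 overlap those of a gene on the opposite strand (COX20, PLEKHJ1, MFSD11 and GATC) over 15.6%, 12.7%, 36.7% and 46.2% of their exonic bases, and SRSF1 shares 56.6% with AC015813.2 on the same strand. Whether the counting used strand is not known from the sources used here, so reads of these pairs may be mixed.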

How the data were processed

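RNA from 6 libraries of HCT116 cells (3 groups of 2, taken from the sample titles) was sequenced with a directional kit, per the labels' protocols. The authors deposited 1 table of estimated counts per gene, 71.9% of them whole numbers. FastQC 0.11.8, Trimmomatic 0.32, HISAT2, featureCounts of Subread 1.6.2, edgeR 3.26.4 and GRCh38 are named per the submitters' processing notes. Which annotation release and strand setting were used, and why some counts are fractional, the sources used here do not state. Counts of reads shared between near-identical or overlapping genes are therefore uncertain.

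Counts were rounded, filtered by filterByExpr, scaled by TMM and fitted over all 6 libraries and 3 groups with edgeR 4.0.16 (robust quasi-likelihood test, R 4.3.3). P-values were adjusted by the Benjamini-Hochberg method over the 16503 genes that entered the fit (threshold 0.05), and the standard error is the fold change divided by the square root of F. The script was tested on simulated data. A count of 0 allows up to 3 counts, or 0.104 to 0.133 CPM, for counting error only. The members, the other gene lists and the alternatives were chosen with earlier results of these data known. Full statistics are given for up to 6 members with the largest rise and up to 6 with the largest fall among those past the threshold, and for the CLK and SRPK kinases; other lists are given by counts with up to 2 genes a direction. The GC-length offset used natural splines (5 degrees of freedom each) of GC content and log2 length of the longest transcript in GENCODE 29. Alternatives were DESeq2 1.42.0, other scalings and filters, blocks, the offset and leaving out each library. Deviations of same-numbered libraries were nearly uncorrelated, which does not settle whether the libraries were paired.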

Additional observations from a re-analysis of the deposited data

How the results depend on the processing

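Each member kept its direction in most of the 18 alternatives, and the alternatives that turned directions were chiefly the GC-length offset and the scalings. In SP2509 against untreated 33 of the 41 members never turned, in siPIR against SP2509 30, and in siPIR against untreated 18. The alternative in which U2AF1 was summed with its copy U2AF1L5, added after the data were seen, turned none. In SP2509 against untreated, leaving out each library in turn gave 26 to 35 members called, 8 to 13 higher and 18 to 22 lower, with 9340 to 12578 genes called in all. In siPIR against untreated, leaving out each library in turn gave 35 to 38 members called, 24 to 26 higher and 11 to 13 lower, with 13550 to 14427 genes called in all. In siPIR against SP2509, leaving out each library in turn gave 35 to 40 members called, 26 to 28 higher and 9 to 12 lower, with 13298 to 13959 genes called in all. With total counts 6 members were called higher with SP2509, to be read beside the counts over all genes given above for that scaling. With the GC-length offset 9 members were called higher and 23 lower in siPIR against untreated, with and without the replicate block. In siPIR against SP2509 16 were called higher and 17 lower, or 17 and 17 with the block. Over all genes the offset without the block gave 33.9% higher and 29.3% lower, then 33.2% higher and 35.4% lower, in the same order of comparisons. The log2 fold changes that turned are given next, first for SP2509 against untreated. With upper-quartile scaling they were SRSF11 -0.048, HNRNPA1 -0.17, HNRNPK -0.0705, SF3B1 -0.087 and U2AF2 -0.14. With total counts they were SRSF11 -0.20, HNRNPA1 -0.33, HNRNPK -0.23, SF3A3 -0.042, SF3B1 -0.24, SF3B4 -0.08 and U2AF2 -0.30. With the GC-length offset it was HNRNPL 0.087, with HNRNPL 0.089 once the replicate block was added. Without untreated replicate 1 it was HNRNPL 0.065. Without SP2509 replicate 2 it was HNRNPL 0.0058. Those of siPIR against untreated follow. With size factors by relative log expression it was HNRNPF 0.14. With upper-quartile scaling they were SRSF4 -0.10, SRSF7 -0.14 and SF3A3 -0.045. With total counts they were SRSF1 -0.068, SRSF2 -0.43, SRSF3 -0.033, SRSF4 -0.54, SRSF7 -0.58, SRSF9 -0.10 and SF3A3 -0.49. With DESeq2 it was HNRNPF 0.14. With no filter on low counts they were SRSF4 -0.0042 and SRSF7 -0.034. With a filter of 1 CPM in 2 libraries it was HNRNPF 0.017. With a block for the described number they were SRSF2 -0.024 and SRSF7 -0.31. With the GC-length offset they were SRSF1 -0.67, SRSF2 -0.14, SRSF3 -0.98, SRSF4 -1.34, SRSF5 -0.41, SRSF6 -0.52, SRSF7 -1.15, SRSF9 -0.45, TRA2B -0.10, HNRNPA2B1 -0.56, HNRNPA3 -0.64, HNRNPC -0.87, HNRNPD -1.19, HNRNPF 0.15, HNRNPH1 -0.71, HNRNPK -0.095, HNRNPM 1.14, HNRNPR -1.39, HNRNPU -1.25, SF3B4 0.24, CLK4 -0.041 and ZRANB2 -0.028, with SRSF2 -0.16, SRSF5 -0.42, SRSF7 -1.17, HNRNPF 0.14 and CLK4 -0.043 once the replicate block was added. Without untreated replicate 1 it was SRSF7 -0.033. Without siPIR replicate 1 they were SRSF2 -0.033 and SRSF7 -0.22. Without siPIR replicate 2 it was HNRNPF 0.21. Without SP2509 replicate 2 it was HNRNPF 0.01. Those of siPIR against SP2509 come last. With total counts they were SRSF4 -0.025 and HNRNPF -0.0076. With the GC-length offset they were SRSF4 -1.17, SRSF9 -0.13, HNRNPC -1.29, HNRNPK -0.29, HNRNPR -0.17, HNRNPU -0.17, CLK1 -1.32, CLK2 0.36, CLK4 -1.36 and SRPK2 -0.33, with CLK2 0.35 and CLK4 -1.37 once the replicate block was added. Over the fits without 1 library SRSF2 in siPIR against untreated lay between -0.033 and 0.42, SRSF7 between -0.22 and 0.30, and HNRNPF between -0.21 and 0.21. A change of scaling moves all genes of a comparison by 1 amount, and the cause of the other turns was not tested. Deviations of same-numbered libraries from their group means correlated at -0.024, -0.038 and 0.081 in the 3 pairs of groups. As the 2 deviations of a group mirror each other, these values cannot settle whether the libraries were paired. The replicate block left 31, 36 and 38 members called, as without it. A block for the unexplained number in the descriptions gave 34, 37 and 39. Over all genes 68.6%, 86.1% and 84.3% were called without a block, so most genes were called in each comparison. With 2 libraries a group the spread is poorly known, and smaller calls (SRSF9, TRA2A, TRA2B, SF3A3, SF3B4, HNRNPA1, HNRNPC and U2AF1, each in 1 or 2 comparisons) were lost in at least 1 fit without a library.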

Other observations

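Other parts of the splicing machinery were followed in 7 lists of genes that are not among the 41. Over all genes 33.5% were called higher and 35.1% lower by edgeR in SP2509 against untreated. Of 17 genes of the Prp19 complex and spliceosomal helicases, 9 rose and 1 fell (median log2 fold change 0.28). BUD31, a component of the activated spliceosome, rose by 1.78 (edgeR adjusted p = 1.14e-08) and CWC22, which loads the exon junction complex, by 0.99 (edgeR adjusted p = 6.84e-06), while CRNKL1 fell by 0.65. Of 18 tested exon junction complex and SR-related genes, 10 rose and 4 fell (median 0.30), with CASC3 at 1.29 and ACIN1 at 0.76 among the rises and MAGOHB at -1.02 and SRSF8, a further SR gene, at -0.55 among the falls. Of 9 tested other kinases and carriers of SR proteins, 5 rose and 1 fell (median 0.43), among them DYRK1A, which phosphorylates splicing factors, at 0.85 and TNPO1, a nuclear import receptor, at 0.99.

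Core snRNP genes had medians near that of all genes with SP2509. Of 22 Sm, U1 and U2 snRNP genes, 3 rose and 7 fell (median -0.06), and of 21 tri-snRNP genes, 6 rose and 5 fell (median -0.06), PRPF31 at -1.40 being among the falls. Of 14 other hnRNPs, 4 rose and 6 fell (median -0.06), with HNRNPH2, the close relative of HNRNPH1, at -1.56 among the falls. Of 22 tested other splicing regulators, 11 rose and 6 fell (median 0.26), with KHDRBS3 at 2.14 and QKI at 1.33 among the rises and NOVA2, a regulator best known from neurons, at -2.74. In siPIR against untreated the median of the tri-snRNP genes, whose median GC content is 51.6%, was -1.37, and -0.27 with the GC-length offset; that of the other splicing regulators, at 41.8% GC, was 1.05, and 0.26 with the offset. The lists were not tested as sets, and the part of GC content in the siPIR values was not tested further.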
